A study of Mus musculus with 13 samples.

Results

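The genes described here make cholesterol and fatty acids or control that synthesis. They were fixed as a list of 32 symbols, and each was found by its Ensembl ID among the 43629 genes of the count files, so 32 of 43629 genes are members. They comprise 8 genes of the acetyl-CoA and mevalonate steps up to squalene, 10 genes of the sterol steps after squalene, 6 regulators and sterol carriers, and 8 genes of fatty acid synthesis, elongation and desaturation. The 18 genes of the mevalonate and sterol steps are called cholesterol enzymes below. RNA was sequenced from mouse embryonic fibroblasts (MEF), connective tissue cells grown from embryos of stage E12.5 per the labels. An immunoprecipitation (IP) library holds the RNA recovered with a protein, here 3 libraries from IMP1 IP, 3 from IMP2 IP and 3 from IP with IgG, the control antibody. IMP1 and IMP2 are related RNA-binding proteins, the products of Igf2bp1 and Igf2bp2, and the series was made to find the RNAs they bind. Total RNA was sequenced from cells deleted for IMP1 (IMP1 KO), from cells deleted for IMP2 (IMP2 KO), and from the wild-type cells of each line (IMP1 WT and IMP2 WT), with 1 library each. Neither the genotype of the cells used for IP nor whether a line is 1 clone is given by the labels, which are also silent on whether the 3 libraries of an IP group were separate cultures. The p-values below therefore measure the spread between these libraries, which may be technical.

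Cholesterol is built from acetyl-CoA through mevalonate, isoprenoid diphosphates and squalene, which is closed to lanosterol and then trimmed to cholesterol. Fatty acids start from the same acetyl-CoA, which is carboxylated, condensed into a saturated chain, and then lengthened or desaturated. Both branches are known targets of the SREBP transcription factors, which Scap carries to the Golgi for cleavage when sterols are low and which Insig proteins hold in the endoplasmic reticulum when sterols are high.

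A library held 11430002 to 21756430 reads assigned to genes. Levels are CPM, the count of a gene per 1000000 counts of its library, scaled by TMM within the 9 IP libraries or within the 4 total RNA libraries, and levels are compared between libraries and not between genes. Reads outside genes were 7.43% to 7.66% of records for IMP1, 4.70% to 5.22% for IMP2 and 24.2% to 25.2% for IgG. The part of this difference in the comparisons with IgG was not tested. Igf2bp1 stood at 3.24 CPM in IMP1 KO and at 32.3 CPM in IMP1 WT, and Igf2bp2 at 28.5 CPM in IMP2 KO and at 149 CPM in IMP2 WT. All 10 fibroblast markers were at 10 CPM or more in every total RNA library. The IMP2 KO library stood apart in leukocyte markers, whose 5 genes summed to 267 CPM there, against 29.3 CPM in IMP2 WT, 22.3 CPM in IMP1 WT and 11.3 CPM in IMP1 KO.

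Promoter sequence was available in the RefSeq tables of GRCm38.p6, the assembly behind mm10, for 25 of the 32 members. The 250 bases before each listed start were searched on both strands for the letters CCAAT, the box bound by NF-Y, for the palindrome CACGTG, called an E-box, and for TCACNCCAC, a form of the sterol response element. CCAAT occurred in 14 of 15 cholesterol enzymes (the exception was Acat2), in 4 of 5 regulators and carriers (the exception was Scap) and in 1 of 5 fatty acid genes (Fasn), while 37.5% of all 27025 genes with a window held it. CACGTG occurred in 3 of 15 cholesterol enzymes, Dhcr7, Hsd17b7 and Sc5d, in the regulators Insig1 and Scap, and in 0 of 5 fatty acid genes, against 6.86% of all genes. TCACNCCAC was found in Hmgcs1 alone of the 25, against 1.22% of all genes. A gene can have more than 1 window, and the 5 regulators and carriers had 10. By window CCAAT occurred in 14 of 18 for cholesterol enzymes, 5 of 10 for regulators and carriers and 1 of 5 for fatty acid genes. Of all 32851 windows 33.8% held it. CACGTG occurred in 3 of 18, 2 of 10 and 0 of 5 in the same order, beside 6.02% of all windows. A match in these letters describes the sequence and shows no bound factor. The 150 bases before the start are printed 5′ to 3′ on the gene's own strand for cholesterol enzymes that were lower in IMP2 KO (Msmo1, Nsdhl, Hsd17b7), for a cholesterol enzyme that was not (Hmgcs1), and for a pair of fatty acid genes that differed in that library (Fasn, Elovl6). Capitals mark matches to the letters searched, where ATTGG is CCAAT read on the other strand.
Msmo1: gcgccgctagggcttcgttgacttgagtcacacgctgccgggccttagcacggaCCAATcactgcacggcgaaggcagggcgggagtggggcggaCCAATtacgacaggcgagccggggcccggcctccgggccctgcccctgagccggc
Nsdhl: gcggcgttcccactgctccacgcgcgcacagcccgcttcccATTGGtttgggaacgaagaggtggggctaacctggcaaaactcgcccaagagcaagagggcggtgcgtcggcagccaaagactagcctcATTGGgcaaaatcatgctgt
Hsd17b7: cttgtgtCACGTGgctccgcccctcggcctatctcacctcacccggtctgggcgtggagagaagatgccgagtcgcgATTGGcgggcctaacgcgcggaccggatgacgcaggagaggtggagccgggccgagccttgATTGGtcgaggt
Hmgcs1: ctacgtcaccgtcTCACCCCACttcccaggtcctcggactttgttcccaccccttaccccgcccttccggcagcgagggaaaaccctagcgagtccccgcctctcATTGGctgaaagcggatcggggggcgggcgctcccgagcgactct
Fasn: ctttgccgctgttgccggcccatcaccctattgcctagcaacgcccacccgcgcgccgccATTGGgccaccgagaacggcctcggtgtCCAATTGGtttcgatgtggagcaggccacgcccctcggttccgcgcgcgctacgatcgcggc
Elovl6: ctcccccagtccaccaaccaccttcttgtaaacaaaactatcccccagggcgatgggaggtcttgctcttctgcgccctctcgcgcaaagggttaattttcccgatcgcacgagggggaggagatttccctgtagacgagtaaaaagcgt

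These windows lie at chr8:64733579-64733728 on the minus strand (Msmo1), chrX:72918371-72918520 on the plus strand (Nsdhl), chr1:169969206-169969355 on the minus strand (Hsd17b7), chr13:119690201-119690350 on the plus strand (Hmgcs1), chr11:120824548-120824697 on the minus strand (Fasn) and chr3:129532236-129532385 on the plus strand (Elovl6). For Fasn and Hsd17b7 the annotated gene reaches further upstream than the start used, so the window lies partly or wholly within its span. In Fasn a forward and a reverse CCAAT overlap, and in Elovl6 none of the letters searched was present.

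The IP comparisons asked which of these messages were recovered with IMP1 or IMP2 beyond the IgG control. All 32 members passed the filter on low counts and were tested in a single edgeR fit over 14076 genes. A gene is called at an adjusted p under 0.05, from edgeR's quasi-likelihood test with Benjamini-Hochberg adjustment over all genes tested. In IMP1 IP against IgG IP, 16 members were higher, 7 were lower and 9 were not called. Among all genes 31.7% were higher and 31.9% lower, and the median log2 fold change was 0.21 over the members and -0.03 over all genes. Under total count and upper quartile scaling the members called were 11 higher and 9 lower, and 11 higher and 10 lower. In IMP2 IP against IgG IP, 24 members were higher, 3 were lower and 5 were not called, beside 40.3% higher and 37.3% lower among all genes. The median was 0.35 over the members and 0.04 over all genes, and under upper quartile scaling 18 members were higher and 7 lower. Members whose libraries did not overlap numbered 25 of 32 with IMP1 and 28 of 32 with IMP2, beside 69.6% and 78.3% of all genes. Calls in either direction took in 63.6% of all genes with IMP1 and 77.6% with IMP2, so a call by itself was common in these libraries. Both comparisons share the 3 IgG libraries.

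The choice of scaling moved every gene together. Total count scaling shifted the median of all genes by -0.15 with IMP1 and by 0.17 with IMP2, and upper quartile scaling by -0.17 and -0.18. Of the genes called in IMP1 IP against IgG IP, 4457 were higher and 4491 lower, while 33.3% of the calls were higher under total count and 31.6% under upper quartile scaling. Of those called in IMP2 IP against IgG IP, 5674 were higher and 5253 lower, while 62.2% and 39.9% were higher under those scalings. Members with log2 fold changes of less than about 0.3 can therefore change sign, and each such change is given with its gene or with the processing results at the end.

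Among the fatty acid genes, Acly, Acaca and Fasn were higher in IMP1 IP than in IMP2 IP, Elovl6, Scd1, Fads1 and Fads2 were lower, and Scd2 was not called. Against IgG IP, 4 of the 8 were higher and 3 lower in IMP1 IP, with a median of 0.15, beside 31.7% higher and 31.9% lower among all genes. With IMP2, 5 were higher and 2 lower, also with a median of 0.15, beside 40.3% and 37.3%, and under upper quartile scaling 2 were higher and 3 lower.

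Acaca (ENSMUSG00000020532, chr11:84129635-84401651) encodes acetyl-CoA carboxylase, which makes malonyl-CoA and commits carbon to fatty acids. It stood at 151, 152 and 157 CPM in the IMP1 IP libraries, at 69.5, 70.3 and 71.4 CPM in IMP2 IP, and at 95.1, 93.6 and 90.8 CPM in IgG IP. Every IMP1 library was above every IgG library and every IMP2 library was below, with no overlap. Its log2 fold change was 0.72 ± 0.039 (SE) with IMP1, at an adjusted p of 6.14e-13 by edgeR, and -0.40 ± 0.041 with IMP2, at an adjusted p of 9.53e-09. Between the proteins it was 1.12 ± 0.039, the largest excess in IMP1 IP over IMP2 IP among the members, at an adjusted p of 5.39e-17.

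Fasn (ENSMUSG00000025153, chr11:120805958-120825166) encodes fatty acid synthase, which builds the saturated chain from malonyl-CoA. Its levels were 1440.1, 1406 and 1393 CPM in IMP1 IP, 839, 720.4 and 797 CPM in IMP2 IP, and 909, 953 and 929 CPM in IgG IP. The groups did not overlap, with IMP1 IP highest and IMP2 IP lowest, as for Acaca. On the log2 scale the change was 0.60 ± 0.041 with IMP1 (edgeR adjusted p = 2.28e-11), -0.24 ± 0.041 with IMP2 (adjusted p = 1.39e-05), and 0.85 ± 0.041 for IMP1 IP over IMP2 IP (adjusted p = 2.26e-14). Acaca and Fasn were the members that were higher with IMP1 and lower with IMP2, and both kept these directions under every scaling tried, though under total count scaling Fasn was at -0.07 with IMP2 and was not called (edgeR adjusted p = 0.109).

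Acly, ATP citrate lyase, supplies cytosolic acetyl-CoA to both branches. It averaged 447 ± 6.89 CPM in IMP1 IP, 326 ± 11.0 CPM in IMP2 IP and 293 ± 7.35 CPM in IgG IP (SD, n = 3 each). The log2 fold change over IgG was 0.61 with IMP1 (edgeR adjusted p = 1.14e-12) and 0.15 with IMP2 (adjusted p = 0.000476), but the second was -0.03 under upper quartile scaling. Elovl6, which lengthens palmitate, was lower in IMP1 IP, at 59.6 ± 2.22 CPM in IMP1 IP, 68.5 ± 4.03 CPM in IMP2 IP and 72.5 ± 2.42 CPM in IgG IP. Its log2 fold change was -0.28 with IMP1 (edgeR adjusted p = 7.07e-05) and -0.08 with IMP2 (adjusted p = 0.16). With IMP2 Elovl6 was called lower with DESeq2 size factors, at -0.14, under upper quartile scaling, at -0.26, and with only the 6 libraries compared, at -0.12 (edgeR adjusted p = 0.0141, 9.04e-05 and 0.0456), while total count scaling gave 0.0954, not called.

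Scd1 (ENSMUSG00000037071, chr19:44394450-44407709) encodes a stearoyl-CoA desaturase, which makes monounsaturated fatty acids. It was at 184, 197 and 196 CPM in IMP1 IP, at 297, 324 and 330.4 CPM in IMP2 IP, and at 287, 283 and 271 CPM in IgG IP. The IMP1 libraries were below all others, and the lowest IMP2 library was above the highest IgG library. The log2 fold change was -0.54 ± 0.042 with IMP1 (edgeR adjusted p = 1.86e-10), 0.18 ± 0.041 with IMP2 (adjusted p = 0.000442), the second at -0.000479 under upper quartile scaling, and -0.72 ± 0.041 between IMP1 and IMP2 (adjusted p = 4.17e-13). Its neighbour Scd2, another stearoyl-CoA desaturase, behaved differently, at 682 ± 8.45 CPM in IMP1 IP, 693 ± 37.3 CPM in IMP2 IP and 568 ± 3.41 CPM in IgG IP. Scd2 was higher with both proteins, by 0.26 and 0.29 on the log2 scale (edgeR adjusted p = 1.07e-06 and 1.75e-07), and was not called between them (adjusted p = 0.552). Under total count scaling Scd2 was lower in IMP1 IP than in IMP2 IP, at -0.35 (edgeR adjusted p = 7.32e-09), and without the first IMP2 library at -0.0763 (adjusted p = 0.00800). The mouse Scd genes are similar in sequence. Reads that align equally to Scd1 and Scd2 were not assigned to either, so both counts may miss reads.

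Fads2 and Fads1 encode the desaturases of polyunsaturated fatty acid synthesis and lie side by side on chromosome 19. Fads2 was at 33.1, 37.5 and 36.8 CPM in IMP1 IP, at 58.2, 63.5 and 66.5 CPM in IMP2 IP, and at 57.4, 56.6 and 56.1 CPM in IgG IP. All 3 IMP1 libraries were below the other 6, while the lowest IMP2 library exceeded the highest IgG library by less than 1 CPM. Its log2 fold change of -0.66 ± 0.061 was the lowest of the members in IMP1 IP (edgeR adjusted p = 3.26e-09), and that with IMP2 was 0.15 ± 0.056 (adjusted p = 0.0197), or -0.03 under upper quartile scaling. Without the third IMP2 library the edgeR adjusted p of Fads2 with IMP2 was 0.0728. The call was also lost with DESeq2 size factors (edgeR adjusted p = 0.174) and with only the 6 libraries compared (0.0960). In the DESeq2 Wald test it was lost as well (adjusted p = 0.263). Fads1 averaged 101 ± 4.32 CPM in IMP1 IP, 172 ± 13.7 CPM in IMP2 IP and 98.3 ± 0.669 CPM in IgG IP, with a log2 fold change of 0.81 with IMP2 (edgeR adjusted p = 2.71e-12) and 0.04 with IMP1 (adjusted p = 0.481).

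**Figure D1:**
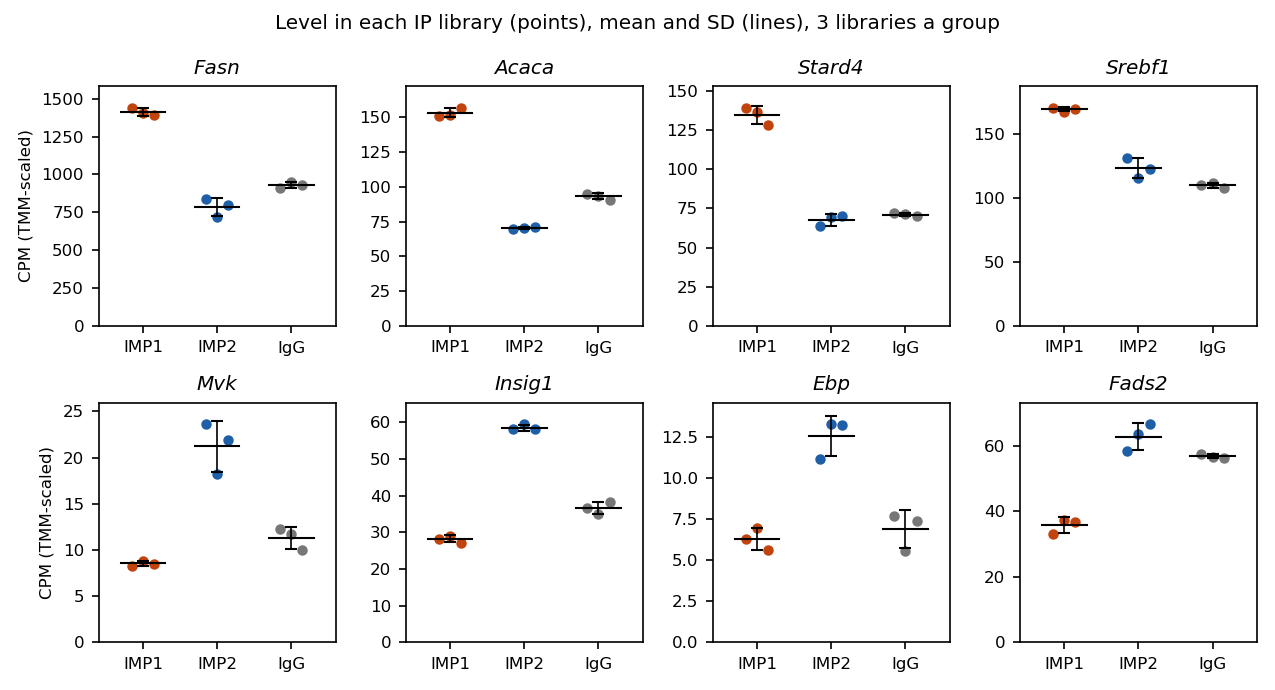
CPM (TMM-scaled, vertical axes from 0) of single members in the IMP1 IP, IMP2 IP and IgG IP libraries, with points for the 3 libraries of a group and lines for the mean and SD. Acaca lies between 151 and 157 CPM in IMP1 IP, between 69.5 and 71.4 CPM in IMP2 IP and between 90.8 and 95.1 CPM in IgG IP.

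Of the regulators and carriers, Srebf1, Srebf2 and Scap were higher with both proteins, Insig1 was lower with IMP1 and higher with IMP2, Insig2 was higher with IMP2 alone and Stard4 with IMP1 alone. Of the 6, 4 were higher and 1 lower in IMP1 IP, beside 31.7% higher and 31.9% lower among all genes. In IMP2 IP 5 were higher and 0 lower, beside 40.3% and 37.3%. The medians were 0.31 in both comparisons with IgG. Under upper quartile scaling the counts were 3 higher and 2 lower in IMP1 IP, and 4 higher and 1 lower in IMP2 IP.

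Srebf1 (ENSMUSG00000020538, chr11:60199084-60224186) encodes the SREBP best known for fatty acid genes. It stood at 170.4, 167 and 169.8 CPM in IMP1 IP, at 131, 115 and 123 CPM in IMP2 IP, and at 110.2, 112 and 108 CPM in IgG IP. IMP1 libraries were above all others and IMP2 libraries above all IgG libraries. Its log2 fold change was 0.62 ± 0.044 with IMP1 (edgeR adjusted p = 4.14e-11) and 0.16 ± 0.044 with IMP2 (adjusted p = 0.00213), the value with IMP2 being -0.02 under upper quartile scaling. The call of Srebf1 with IMP2 was also lost with DESeq2 size factors, at 0.0976 (edgeR adjusted p = 0.0506). In the DESeq2 Wald test it was lost at 0.0978 (adjusted p = 0.0817). IMP1 IP exceeded IMP2 IP by 0.46 ± 0.042 (edgeR adjusted p = 1.56e-09).

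Srebf2 (ENSMUSG00000022463, chr15:82147269-82205379) encodes the SREBP best known for cholesterol genes. Its levels were 593, 584 and 586 CPM in IMP1 IP, 561, 499.9 and 544 CPM in IMP2 IP, and 438, 451 and 443 CPM in IgG IP. The groups did not overlap, in the same order as for Srebf1. It was higher by 0.40 ± 0.037 with IMP1 (edgeR adjusted p = 3.51e-09) and by 0.27 ± 0.037 with IMP2 (adjusted p = 9.81e-07). The excess of IMP1 IP over IMP2 IP was 0.14 ± 0.037 (edgeR adjusted p = 0.00232), and under total count scaling this difference was -0.19 (adjusted p = 4.94e-05).

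Insig1 (ENSMUSG00000045294, chr5:28071412-28078662) encodes an endoplasmic reticulum protein that retains the Scap and SREBP complex. It was at 28.2, 29.1 and 27.2 CPM in IMP1 IP, at 58.0, 59.4 and 58.1 CPM in IMP2 IP, and at 36.7, 35.0 and 38.2 CPM in IgG IP. Unlike the Srebf genes, its IMP1 libraries were the lowest and its IMP2 libraries the highest, with no overlap. On the log2 scale the change was -0.38 ± 0.059 with IMP1 (edgeR adjusted p = 7.07e-06) and 0.67 ± 0.053 with IMP2 (adjusted p = 1.54e-10), and IMP1 IP was lower than IMP2 IP by -1.05 ± 0.053 (adjusted p = 4.84e-14). These directions were the same under every scaling tried.

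Insig2, the second Insig gene, averaged 30.9 ± 0.371 CPM in IMP1 IP, 39.4 ± 1.06 CPM in IMP2 IP and 30.7 ± 1.15 CPM in IgG IP. It was higher with IMP2, by 0.36 (edgeR adjusted p = 6.55e-06), and not called with IMP1, at 0.01 (adjusted p = 0.925). Scap, the sterol-sensing escort of SREBP, averaged 71.0 ± 2.02 CPM in IMP1 IP, 100.3 ± 4.76 CPM in IMP2 IP and 61.3 ± 4.67 CPM in IgG IP, and was higher by 0.22 with IMP1 (edgeR adjusted p = 0.00173) and by 0.71 with IMP2 (adjusted p = 5.08e-11).

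Stard4 (ENSMUSG00000024378, chr18:33199138-33213862) encodes a carrier that moves cholesterol between membranes. It stood at 139, 137 and 128 CPM in IMP1 IP, at 63.5, 69.8 and 70.3 CPM in IMP2 IP, and at 71.8, 71.1 and 70.2 CPM in IgG IP. The IMP1 libraries lay far above the rest, and IMP2 and IgG libraries overlapped. With IMP1 its log2 fold change of 0.92 ± 0.048 was the highest of the members (edgeR adjusted p = 2.23e-13), and with IMP2 it was -0.06 ± 0.049 (adjusted p = 0.248). That value with IMP2 depended on the scaling, at 0.11 under total count (adjusted p = 0.0449), -0.13 with DESeq2 size factors (adjusted p = 0.0216) and -0.24 under upper quartile scaling (adjusted p = 0.000156), each called by edgeR. IMP1 IP exceeded IMP2 IP by 0.98 ± 0.046 (edgeR adjusted p = 9.85e-15).

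The cholesterol enzymes were largely higher in IMP2 IP. Of the 18, 14 were higher, 1 lower and 3 not called with IMP2, beside 40.3% higher and 37.3% lower among all genes. Their median was 0.54, and under upper quartile scaling 12 were higher and 3 lower. With IMP1, 8 were higher, 3 lower and 7 not called, beside 31.7% higher and 31.9% lower among all genes. Their median was 0.15, and under both total count and upper quartile scaling 4 were higher and 4 lower. The calls lost in IMP1 IP under both scalings were those of Acat2, Fdft1, Msmo1, Dhcr7 and the regulator Scap, whose log2 fold changes then lay between 0.02 and 0.11. In IMP2 IP under upper quartile scaling the calls of Sqle and Hsd17b7 were lost, at 0.04 and 0.03, and Hmgcs1 and Lss were lower, at -0.13 and -0.14. The mevalonate steps gave 3 higher and 1 lower of 8 with IMP1, and 6 higher and 0 lower with IMP2. The sterol steps gave 5 higher and 2 lower of 10 with IMP1, and 8 higher and 1 lower with IMP2. The counts of both sets of steps are read against the same shares of all genes.

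Acat2, the thiolase that joins a pair of acetyl-CoA molecules, averaged 46.1 ± 3.00 CPM in IMP1 IP, 59.1 ± 6.46 CPM in IMP2 IP and 39.7 ± 1.12 CPM in IgG IP. It was higher by 0.22 with IMP1 (edgeR adjusted p = 0.0131, or 0.0611 without the second IMP1 library) and by 0.58 with IMP2 (adjusted p = 1.24e-07). Hmgcs1, which condenses acetoacetyl-CoA to HMG-CoA, was one of the 3 cholesterol enzymes higher in IMP1 IP than in IMP2 IP, beside Sqle and Lss, though under total count scaling the difference was -0.08. It averaged 149.5 ± 6.31 CPM in IMP1 IP, 126 ± 2.83 CPM in IMP2 IP and 122 ± 0.438 CPM in IgG IP, with log2 fold changes over IgG of 0.29 with IMP1 (edgeR adjusted p = 1.51e-06) and 0.04 with IMP2 (adjusted p = 0.319).

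Mvk (ENSMUSG00000041939, chr5:114444264-114460591) encodes mevalonate kinase. It was at 8.27, 8.84 and 8.53 CPM in IMP1 IP, at 23.6, 18.2 and 21.8 CPM in IMP2 IP, and at 12.2, 11.7 and 9.98 CPM in IgG IP. IMP2 libraries were all the highest and IMP1 libraries all the lowest. With IMP2 its log2 fold change of 0.90 ± 0.102 was the highest of the members (edgeR adjusted p = 4.67e-08), with IMP1 it was -0.40 ± 0.120 (adjusted p = 0.00605), and the difference of IMP1 IP from IMP2 IP, -1.3 ± 0.103, was the lowest of the members (adjusted p = 1.18e-10).

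Pmvk, Mvd and Fdps were also higher with IMP2 and were not called with IMP1. Pmvk, phosphomevalonate kinase, averaged 4.37 ± 0.382 CPM in IMP1 IP, 6.80 ± 1.14 CPM in IMP2 IP and 4.36 ± 0.734 CPM in IgG IP, and was higher by 0.62 with IMP2 (edgeR adjusted p = 0.000725). Mvd, the decarboxylase that yields isopentenyl diphosphate, averaged 8.18 ± 0.952 CPM in IMP1 IP, 12.9 ± 0.812 CPM in IMP2 IP and 7.96 ± 0.293 CPM in IgG IP, and was higher by 0.69 with IMP2 (edgeR adjusted p = 2.80e-06). Fdps, which makes farnesyl diphosphate, averaged 17.3 ± 1.21 CPM in IMP1 IP, 24.2 ± 3.60 CPM in IMP2 IP and 14.8 ± 0.117 CPM in IgG IP, and was higher by 0.70 with IMP2 (edgeR adjusted p = 1.04e-06). With IMP1 the log2 fold changes of Pmvk, Mvd and Fdps were 0.00, 0.04 and 0.23, at edgeR adjusted p-values of 0.996, 0.785 and 0.0612. Fdps was called higher with IMP1 with no count filter (edgeR adjusted p = 0.00645), with the 6 libraries compared (0.0192), with the replicate block (0.0411), and without IMP1 library 2 or IMP2 library 1 or 3 (0.0325, 0.0119 and 0.0203). Under total count scaling Pmvk and Mvd had values of -0.15 and -0.11 with IMP1.

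Fdft1, squalene synthase, was higher with both proteins, at 24.1 ± 0.718 CPM in IMP1 IP, 33.9 ± 1.87 CPM in IMP2 IP and 20.0 ± 1.23 CPM in IgG IP. The log2 fold changes were 0.26 with IMP1 (edgeR adjusted p = 0.00371) and 0.75 with IMP2 (adjusted p = 1.93e-09). Idi1, which isomerises isopentenyl diphosphate, was the only member called in none of the 3 IP comparisons, at 1.53 ± 0.160 CPM in IMP1 IP, 1.78 ± 0.308 CPM in IMP2 IP and 1.44 ± 0.301 CPM in IgG IP. Between 21 and 37 reads were assigned to Idi1 in a total RNA library, so its values carry a large counting error, and under total count scaling it was called higher with IMP2, at 0.51, and lower in IMP1 IP than in IMP2 IP, at -0.56. Alignments to more than 1 place, 38.4% to 40.9% of records in total RNA, were not assigned to genes, and a gene with near-identical copies would lose reads in this way.

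Among the sterol steps, Sqle, the squalene epoxidase, and Lss, which closes the ring to lanosterol, were recovered more with IMP1. Sqle averaged 219 ± 0.886 CPM in IMP1 IP, 171 ± 6.34 CPM in IMP2 IP and 147 ± 4.40 CPM in IgG IP, higher by 0.57 with IMP1 (edgeR adjusted p = 1.56e-11) and by 0.22 with IMP2 (adjusted p = 2.37e-05). Lss averaged 93.6 ± 2.44 CPM in IMP1 IP, 74.0 ± 2.29 CPM in IMP2 IP and 72.2 ± 0.793 CPM in IgG IP, higher by 0.37 with IMP1 (edgeR adjusted p = 1.50e-07) and not called with IMP2 (adjusted p = 0.463). The excess of IMP1 IP over IMP2 IP was 0.35 for Sqle (edgeR adjusted p = 1.11e-08) and 0.34 for Lss (adjusted p = 2.02e-07), and neither was called under total count scaling, at 0.03 and 0.01. Cyp51, the lanosterol demethylase, averaged 141 ± 3.63 CPM in IMP1 IP, 134 ± 8.34 CPM in IMP2 IP and 96.5 ± 1.27 CPM in IgG IP. It was higher by 0.55 with IMP1 (edgeR adjusted p = 5.15e-10) and by 0.47 with IMP2 (adjusted p = 3.25e-09).

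Tm7sf2 (ENSMUSG00000024799, chr19:6062821-6067850), a sterol reductase that follows Cyp51, was the only member lower with both proteins. It was at 1.48, 1.77 and 1.61 CPM in IMP1 IP, at 1.42, 0.924 and 1.6 CPM in IMP2 IP, and at 2.3, 2.3 and 2.36 CPM in IgG IP. Every IgG library was above the other 6, but the levels were low. The log2 fold change of -0.82 ± 0.215 with IMP2 was the lowest of the members (edgeR adjusted p = 0.00158). With IMP1 it was -0.52 ± 0.218 (edgeR adjusted p = 0.0413), and that call was lost on leaving out any single IMP1 or IgG library, at adjusted p-values of 0.0517 to 0.123. It was also lost with the replicate block (edgeR adjusted p = 0.0506), with no count filter (0.0929) and in the DESeq2 Wald test (0.137).

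Msmo1 (ENSMUSG00000031604, chr8:64718123-64733578) encodes the oxidase that starts removal of the C4 methyl groups of sterols. Its levels were 89.6, 86.3 and 90.8 CPM in IMP1 IP, 133, 147 and 139 CPM in IMP2 IP, and 78.8, 78.6 and 75.6 CPM in IgG IP. IMP2 libraries were far above the rest, and IMP1 libraries were above all IgG libraries. The log2 fold change was 0.85 ± 0.045 with IMP2 (edgeR adjusted p = 1.81e-13) and 0.20 ± 0.047 with IMP1 (adjusted p = 0.000978).

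Nsdhl and Hsd17b7 encode the dehydrogenase and the reductase that complete the same demethylation. Nsdhl averaged 11.0 ± 0.306 CPM in IMP1 IP, 16 ± 1.36 CPM in IMP2 IP and 10.2 ± 1.28 CPM in IgG IP, higher by 0.66 with IMP2 (edgeR adjusted p = 2.47e-06) and not called with IMP1 (0.11, adjusted p = 0.376). Hsd17b7 averaged 26.4 ± 1.05 CPM in IMP1 IP, 34.7 ± 1.95 CPM in IMP2 IP and 30.1 ± 1.03 CPM in IgG IP. It was higher by 0.21 with IMP2 (edgeR adjusted p = 0.00434) and lower with IMP1, at -0.18 (adjusted p = 0.0206). The call with IMP1 was lost without IgG library 1 or 2 or IMP1 library 1 or 2, at adjusted p-values of 0.0596 to 0.103. It was also lost with no count filter (edgeR adjusted p = 0.194). The call of Hsd17b7 with IMP2 was lost in the DESeq2 Wald test (adjusted p = 0.0941).

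Ebp (ENSMUSG00000031168, chrX:8185329-8193512) encodes the sterol isomerase that moves the ring double bond. It was at 6.26, 6.95 and 5.63 CPM in IMP1 IP, at 11.1, 13.2 and 13.2 CPM in IMP2 IP, and at 7.70, 5.54 and 7.35 CPM in IgG IP. IMP2 libraries were above all others, and IMP1 and IgG libraries overlapped. Its log2 fold change was 0.86 ± 0.119 with IMP2 (edgeR adjusted p = 9.22e-07) and -0.14 ± 0.138 with IMP1 (adjusted p = 0.382), and IMP1 IP was lower than IMP2 IP by -1.0 ± 0.116 (adjusted p = 6.66e-08). Sc5d, the sterol desaturase that follows Ebp, averaged 68.4 ± 3.87 CPM in IMP1 IP, 101 ± 14.9 CPM in IMP2 IP and 74.5 ± 1.54 CPM in IgG IP, and was higher by 0.45 with IMP2 (edgeR adjusted p = 9.41e-06). With IMP1 it was at -0.12 and not called (edgeR adjusted p = 0.167), though the IMP1 libraries were all below the IgG libraries. Sc5d was called lower with IMP1 under total count and upper quartile scaling, at -0.28 and -0.29, with the 6 libraries compared, at -0.14, and without the first IMP2 library, at -0.11 (edgeR adjusted p = 0.00385, 0.00202, 0.00342 and 0.0213). Dhcr7, the reductase that yields cholesterol, averaged 25.4 ± 0.897 CPM in IMP1 IP, 30.5 ± 1.04 CPM in IMP2 IP and 21.6 ± 1.22 CPM in IgG IP, and was higher by 0.23 with IMP1 (edgeR adjusted p = 0.00653) and by 0.50 with IMP2 (adjusted p = 5.63e-07).

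Set directly against each other, the proteins differed for 28 of the 32 members. In IMP1 IP, 9 members were higher than in IMP2 IP and 19 lower, beside 34.1% higher and 37.3% lower among all genes, and under total count scaling 5 were higher and 23 lower. The median was -0.36 over the members and -0.43 over the 18 cholesterol enzymes, of which 3 were higher and 12 lower. The regulators were 3 higher and 3 lower, and the fatty acid genes 3 higher and 4 lower. Total count scaling shifted the median of all genes by -0.33 in this comparison, and 27.8% of its calls were then higher, against 4800 higher of 10053 calls with TMM. The libraries did not overlap for 28 members, beside 73.2% of all genes. The 3 largest excesses in IMP1 IP were Acaca at 1.12, Stard4 at 0.98 and Fasn at 0.85, and the 3 largest in IMP2 IP were Mvk at -1.3, Insig1 at -1.05 and Ebp at -1.0. Acly, Sqle, Srebf1 and Srebf2 were higher with both proteins and higher in IMP1 IP than in IMP2 IP. Higher with both and lower in IMP1 IP than in IMP2 IP were Acat2, Dhcr7, Fdft1, Msmo1 and Scap. Lower with IMP1 and higher with IMP2 were Fads2, Hsd17b7, Insig1, Mvk and Scd1. Of these calls, those of Fads2, Hsd17b7 and Scd1 with IMP2 and of Hsd17b7 with IMP1 were lost under some settings, as given above.

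**Figure D2:**
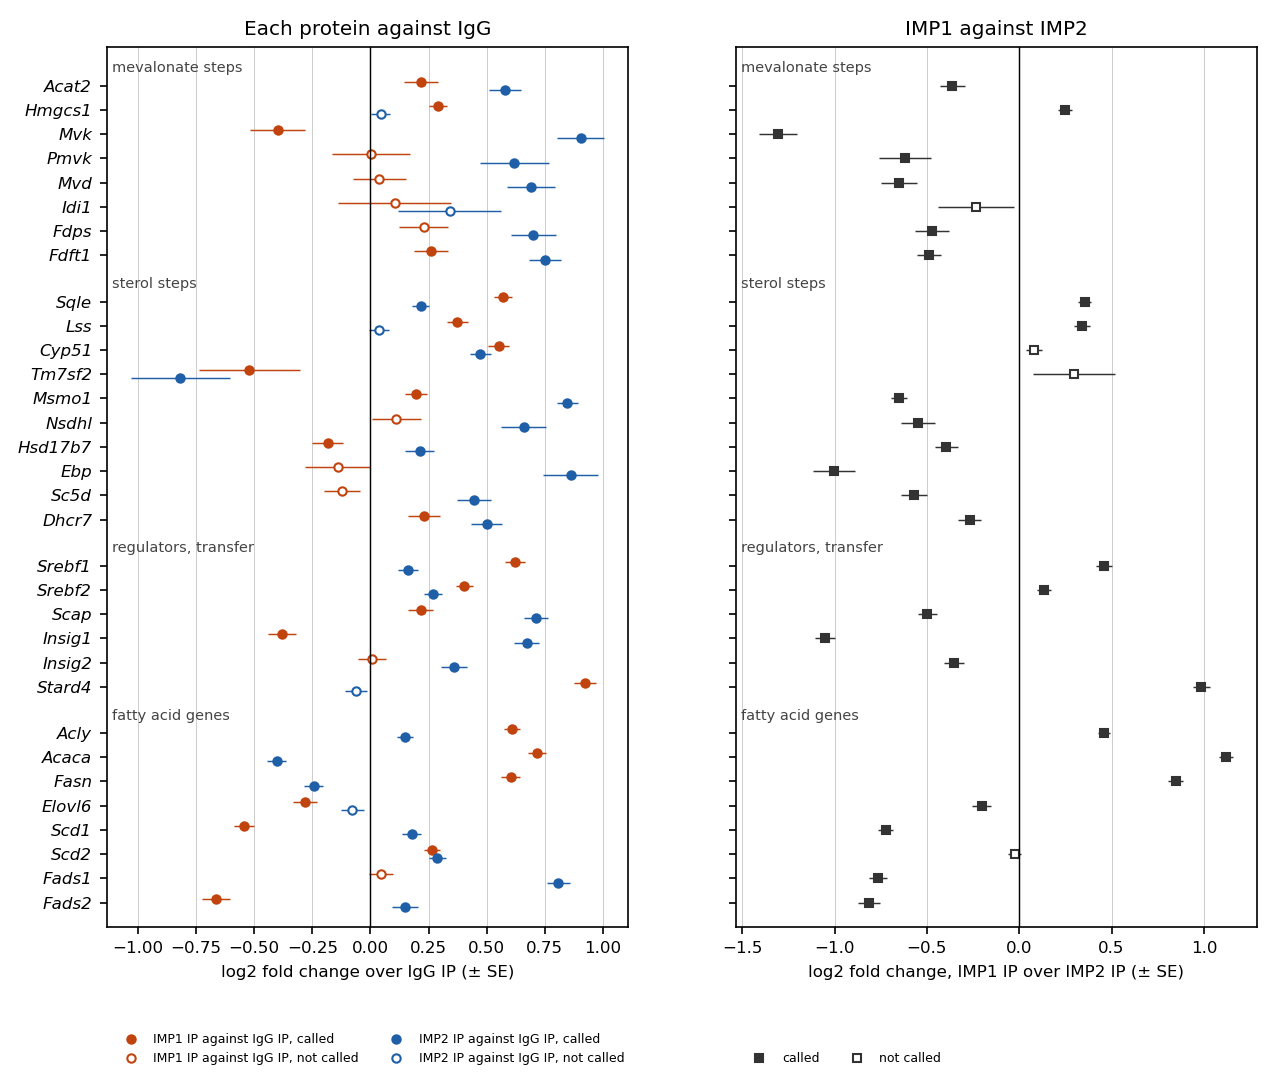
Log2 fold change with SE (horizontal axes) of each of the 32 members, in the left panel for IMP1 IP and IMP2 IP over IgG IP and in the right panel for IMP1 IP over IMP2 IP, with filled points for members called by edgeR. In the right panel Acaca lies farthest to the right at 1.12 and Mvk farthest to the left at -1.3.

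Recovery in the IP libraries was also set beside wild-type total RNA, as values with no test, since the library kinds differ and each WT library belongs to another line. For this the CPM were scaled by TMM over all 13 libraries, so levels differ slightly from those above. In IMP1 IP, 14 members were above both WT libraries in every library and 16 below, beside 46.6% above and 47.0% below among genes with at least 10 CPM. In IMP2 IP, 16 were above and 11 below, beside 48.2% and 42.0%. In IgG IP, 11 were above and 16 below, beside 43.5% and 49.2%, so much of the pattern was present in the control as well. The fatty acid genes were above WT total RNA for 6 of 8 in IMP1 IP, 6 of 8 in IMP2 IP and 5 of 8 in IgG IP. The cholesterol enzymes were below it for 12 of 18 in IMP1 IP, 10 of 18 in IMP2 IP and 13 of 18 in IgG IP.

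Acaca averaged 163 CPM in IMP1 IP, 72.6 CPM in IMP2 IP and 96.0 CPM in IgG IP on this scale, and 16.5 CPM in WT total RNA, which gave log2 ratios of 3.30, 2.13 and 2.53. Fasn averaged 1503 CPM in IMP1 IP, 810.2 CPM in IMP2 IP and 958 CPM in IgG IP, and 190.3 CPM in WT total RNA, with log2 ratios of 2.98, 2.09 and 2.33. Stard4 had a log2 ratio of 2.41 in IMP1 IP, 1.38 in IMP2 IP and 1.44 in IgG IP, and Srebf2 one of 2.14 in IMP1 IP, 1.96 in IMP2 IP and 1.69 in IgG IP. At the other end, Tm7sf2 had a log2 ratio of -2.49 in IMP1 IP, -2.81 in IMP2 IP and -2.04 in IgG IP. Nsdhl had ratios of -2.27, -1.78 and -2.42 and Pmvk of -2.10, -1.52 and -2.15 in the same order. The IgG libraries thus lay on the same side of total RNA as the IMP libraries for each of these 7 genes.

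**Figure D3:**
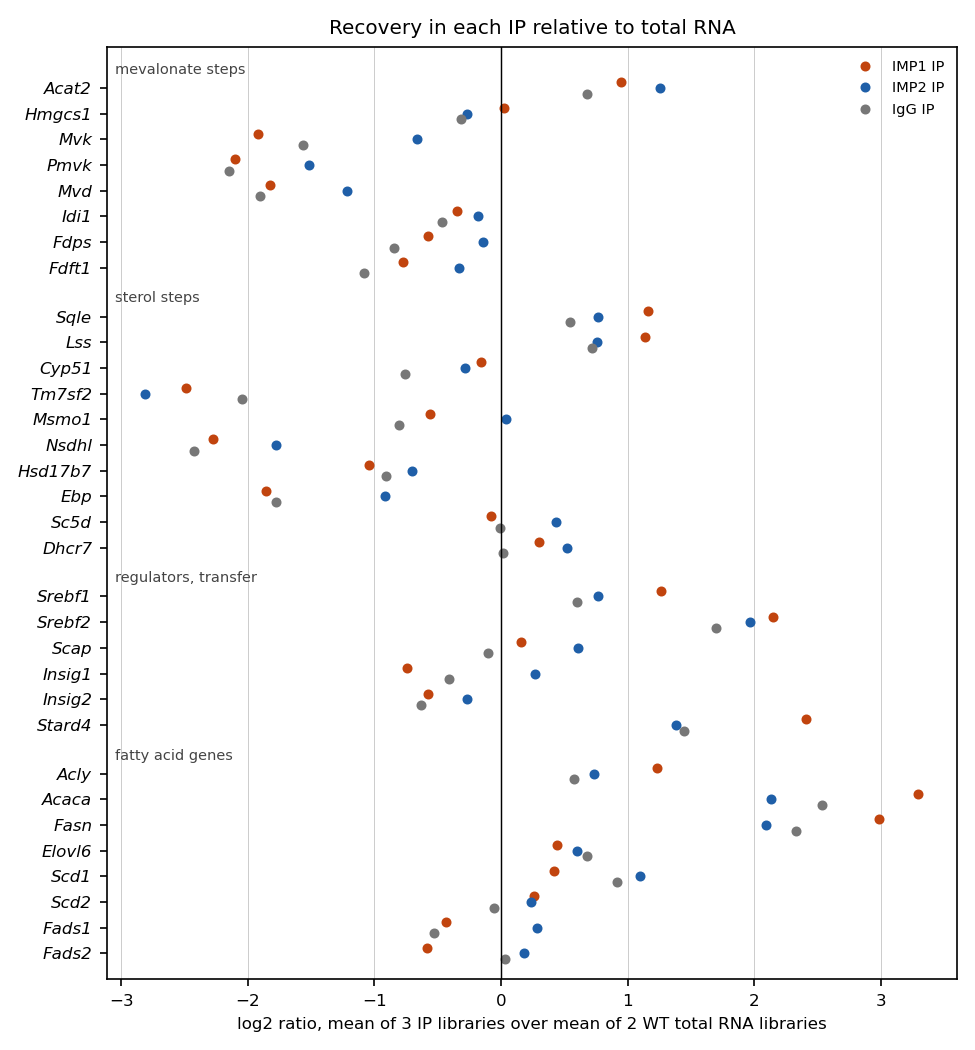
Log2 ratio (horizontal axis) of the mean of 3 IP libraries over the mean of the 2 WT total RNA libraries for each member, with a colour for each of IMP1 IP, IMP2 IP and IgG IP. Acaca lies farthest to the right, at 3.30 in IMP1 IP, and Tm7sf2 farthest to the left, at -2.81 in IMP2 IP, with the IgG points on the same side in both.

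The knockout libraries asked whether the levels of these messages differed without IMP1 or IMP2. With 1 library per genotype there was no test and no replicate check, and the intervals given cover counting error only. Counts are of the members with at least 10 CPM in 1 of the 4 total RNA libraries, which 31 of 32 reached, all except Idi1, and of log2 ratios past 1.5-fold. In bulk libraries fewer cells of a type and less RNA per cell cannot be told apart. The WT libraries of the lines differed little from each other. No member passed 1.5-fold between IMP2 WT and IMP1 WT, beside 2.96% of all genes higher and 1.93% lower, and the members' log2 ratios ranged from -0.15 to 0.53. Of the 31 members 25 lay above 0 and 6 below, and of the 17 cholesterol enzymes 14 lay above and 3 below, where 49.4% of all genes lay below 0. The medians were 0.08 over the members and 0.03 over the cholesterol enzymes.

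The IMP2 KO library held less of most cholesterol enzymes than IMP2 WT. Of the 17 counted, 0 were higher and 11 lower past 1.5-fold, 15 lay below 0, and the median log2 ratio was -0.64. Among all genes 15.1% were higher, 15.1% lower and 50.8% below 0. Over all 31 members counted, 2 were higher and 14 lower. The sterol steps were lower for 8 of 10 and the mevalonate steps for 3 of 7. Set against IMP1 WT instead, 8 of the 17 cholesterol enzymes were lower and 0 higher, and Tm7sf2 was at -0.12. The shares of all genes above belong to IMP2 KO against IMP2 WT, and none is given for IMP2 KO against IMP1 WT. Leukocyte markers were higher in the IMP2 KO library, with Lyz2 at 190.3 CPM against 19.4 CPM in IMP2 WT. Csf1r was at 33.7 against 4.27 CPM, and Adgre1 at 24.8 against 1.13 CPM. The adipocyte list summed to 61.4 CPM, almost all of it Fabp4, with Cidec and Lep at 0, against 5.40 CPM in IMP2 WT. The fibroblast list summed to 61534 CPM in IMP2 KO and 58167 CPM in IMP2 WT, but single genes of it differed, with Thy1 at 93.9 CPM in IMP2 KO and 696 CPM in IMP2 WT and Pdgfra at 313 and 83.5 CPM, both picked after their values were seen. The part of these markers in the differences below was not tested.

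Hsd17b7 was the cholesterol enzyme with the lowest ratio, at 24.1 CPM in IMP2 KO and 68.2 CPM in IMP2 WT, or 2.83-fold lower (95% counting interval 2.52 to 3.19). Fdps was at 13.7 CPM in IMP2 KO and 30.3 CPM in IMP2 WT, 2.22-fold lower (1.89 to 2.61). Msmo1 was at 70.4 CPM in IMP2 KO and 155 CPM in IMP2 WT, 2.2-fold lower (2.06 to 2.37). Each of the intervals excluded 1.5-fold. Nsdhl, at 29.7 CPM in IMP2 KO and 63.6 CPM in IMP2 WT, was 2.14-fold lower (1.92 to 2.39), so that Msmo1, Nsdhl and Hsd17b7, the enzymes of sterol demethylation at C4, each had a ratio more than 2-fold lower. Cyp51 was at 109 CPM in IMP2 KO and 193 CPM in IMP2 WT, 1.76-fold lower (1.66 to 1.87). Lss, at 32.7 CPM in IMP2 KO and 50.2 CPM in IMP2 WT, was 1.53-fold lower (1.37 to 1.71), and Mvd, at 21.6 and 34.6 CPM, was 1.6-fold lower (1.40 to 1.84). Acat2, Tm7sf2 and Sc5d were also past the threshold, 1.58-fold, 1.58-fold and 1.56-fold lower. Sqle, at a log2 ratio of -0.59, had just passed the threshold and is counted among the 11, while Fdft1, at -0.54, had not.

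The cholesterol enzymes that were not lower in IMP2 KO were Hmgcs1 and Dhcr7. Hmgcs1 was at 195 CPM in IMP2 KO and 178 CPM in IMP2 WT, a ratio of 1.1 (1.04 to 1.15). Dhcr7 was at 27.6 CPM in IMP2 KO and 24.6 CPM in IMP2 WT, a ratio of 1.12 (0.980 to 1.29). Mvk, the member with the highest recovery in IMP2 IP over IgG IP, was at 29.7 CPM in IMP2 KO and 36.3 CPM in IMP2 WT, 1.22-fold lower (1.08 to 1.38).

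None of the 6 regulators and carriers passed 1.5-fold in IMP2 KO. Srebf1 was at 110.2 CPM in IMP2 KO and 87.2 CPM in IMP2 WT, a ratio of 1.26 (1.18 to 1.35), while Srebf2 was at 128 CPM in IMP2 KO and 162 CPM in IMP2 WT, a ratio of 0.789 (0.745 to 0.836). The SREBP genes thus lay on opposite sides of 1. Insig1 was at 69.4 CPM in IMP2 KO and 56.8 CPM in IMP2 WT, a ratio of 1.22 (1.12 to 1.33). Stard4 had a ratio of 1.36 (1.2 to 1.53), Scap of 1.08 (0.996 to 1.16) and Insig2 of 0.686 (0.617 to 0.761).

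Of the 8 fatty acid genes, 2 were higher and 3 lower past 1.5-fold in IMP2 KO, beside 15.1% each way among all genes. Scd1 had the lowest ratio of all members, at 50.6 CPM in IMP2 KO and 181 CPM in IMP2 WT, 3.57-fold lower (3.30 to 3.86). Scd2 was at 506 CPM in IMP2 KO and 761 CPM in IMP2 WT, 1.5-fold lower (1.46 to 1.55), and Acly at 139.7 and 230.1 CPM, 1.65-fold lower (1.56 to 1.74). Scd2 also differed between the WT libraries, at 761 CPM in IMP2 WT and 581 CPM in IMP1 WT, and Scd2 lay within 1.5-fold when IMP2 KO was set against IMP1 WT. On the other side, Elovl6 was at 102 CPM in IMP2 KO and 54.1 CPM in IMP2 WT, a ratio of 1.88 (1.74 to 2.05). Acaca was at 36.8 CPM in IMP2 KO and 19.6 CPM in IMP2 WT, a ratio of 1.88 (1.64 to 2.15). Fads1, at 252 CPM in IMP2 KO and 170.0 CPM in IMP2 WT, had just not passed the threshold, at 1.48 (1.41 to 1.56). Fasn was at 169.8 CPM in IMP2 KO and 206 CPM in IMP2 WT, a ratio of 0.825 (0.784 to 0.867), so the ratios of Acaca and Fasn, which act in sequence, lay on opposite sides of 1. Fads2 had a ratio of 1.16 (1.07 to 1.26).

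In IMP1 KO against IMP1 WT few members passed 1.5-fold. Of the 31 counted, 2 were higher and 2 lower, beside 11.9% higher and 13.4% lower among all genes, and the median log2 ratio was -0.05, where 52.1% of all genes lay below 0. The 17 cholesterol enzymes were 2 higher and 1 lower, the 6 regulators 0 and 0, and the 8 fatty acid genes 0 higher and 1 lower.

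Sqle (ENSMUSG00000022351, chr15:59315092-59331193) had the highest ratio, at 202 CPM in IMP1 KO and 111 CPM in IMP1 WT, a ratio of 1.82 (1.71 to 1.94). Tm7sf2 was at 15.1 CPM in IMP1 KO and 9.23 CPM in IMP1 WT, a ratio of 1.63 (1.3 to 2.06), and lay within 1.5-fold when set against IMP2 WT, which held 13.4 CPM. Ebp was at 39.3 CPM in IMP1 KO and 26.3 CPM in IMP1 WT, a ratio of 1.49 (1.3 to 1.71). On the lower side, Elovl6 was at 29.8 CPM in IMP1 KO and 49.2 CPM in IMP1 WT, 1.65-fold lower (1.45 to 1.88). Sc5d was at 54.1 CPM in IMP1 KO and 87.6 CPM in IMP1 WT, 1.62-fold lower (1.47 to 1.78), and Msmo1 at 115 CPM in IMP1 KO and 154 CPM in IMP1 WT, 1.34-fold lower (1.25 to 1.43). Sc5d was thus lower by over 1.5-fold in each knockout against its own WT library.

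The regulators, Acaca and Fasn lay within 1.5-fold in IMP1 KO. Sqle, at a log2 fold change of 0.57 in IMP1 IP over IgG IP, passed 1.5-fold there, as given above. Acaca was at 15.1 CPM in IMP1 KO and 16.8 CPM in IMP1 WT, a ratio of 0.896 (0.735 to 1.09), and Fasn at 203 CPM in IMP1 KO and 215 CPM in IMP1 WT, a ratio of 0.945 (0.895 to 0.997). Srebf1 was at 71.9 CPM in IMP1 KO and 78.3 CPM in IMP1 WT, a ratio of 0.918 (0.839 to 1.00), and Srebf2 at 131 CPM in IMP1 KO and 150.1 CPM in IMP1 WT, a ratio of 0.874 (0.818 to 0.933). Stard4 was at 41.8 CPM in IMP1 KO and 30.6 CPM in IMP1 WT, a ratio of 1.36 (1.2 to 1.55). Insig1 was at 68.0 CPM in IMP1 KO and 54.1 CPM in IMP1 WT, a ratio of 1.26 (1.14 to 1.39).

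Several members lay on opposite sides of 1 in the knockouts, among them Elovl6, Sqle and Scd1, and also Tm7sf2, Acaca and Srebf1, as given above. Of the 17 cholesterol enzymes, 9 lay above 0 and 8 below in IMP1 KO, and 2 above and 15 below in IMP2 KO. Among all genes 52.1% lay below 0 in IMP1 KO and 50.8% in IMP2 KO. Elovl6 had log2 ratios of -0.72 in IMP1 KO and 0.91 in IMP2 KO, Sqle of 0.86 in IMP1 KO and -0.59 in IMP2 KO, and Scd1 of 0.39 in IMP1 KO and -1.83 in IMP2 KO. The difference between the knockouts was not tested, since each has 1 library.

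**Figure D4:**
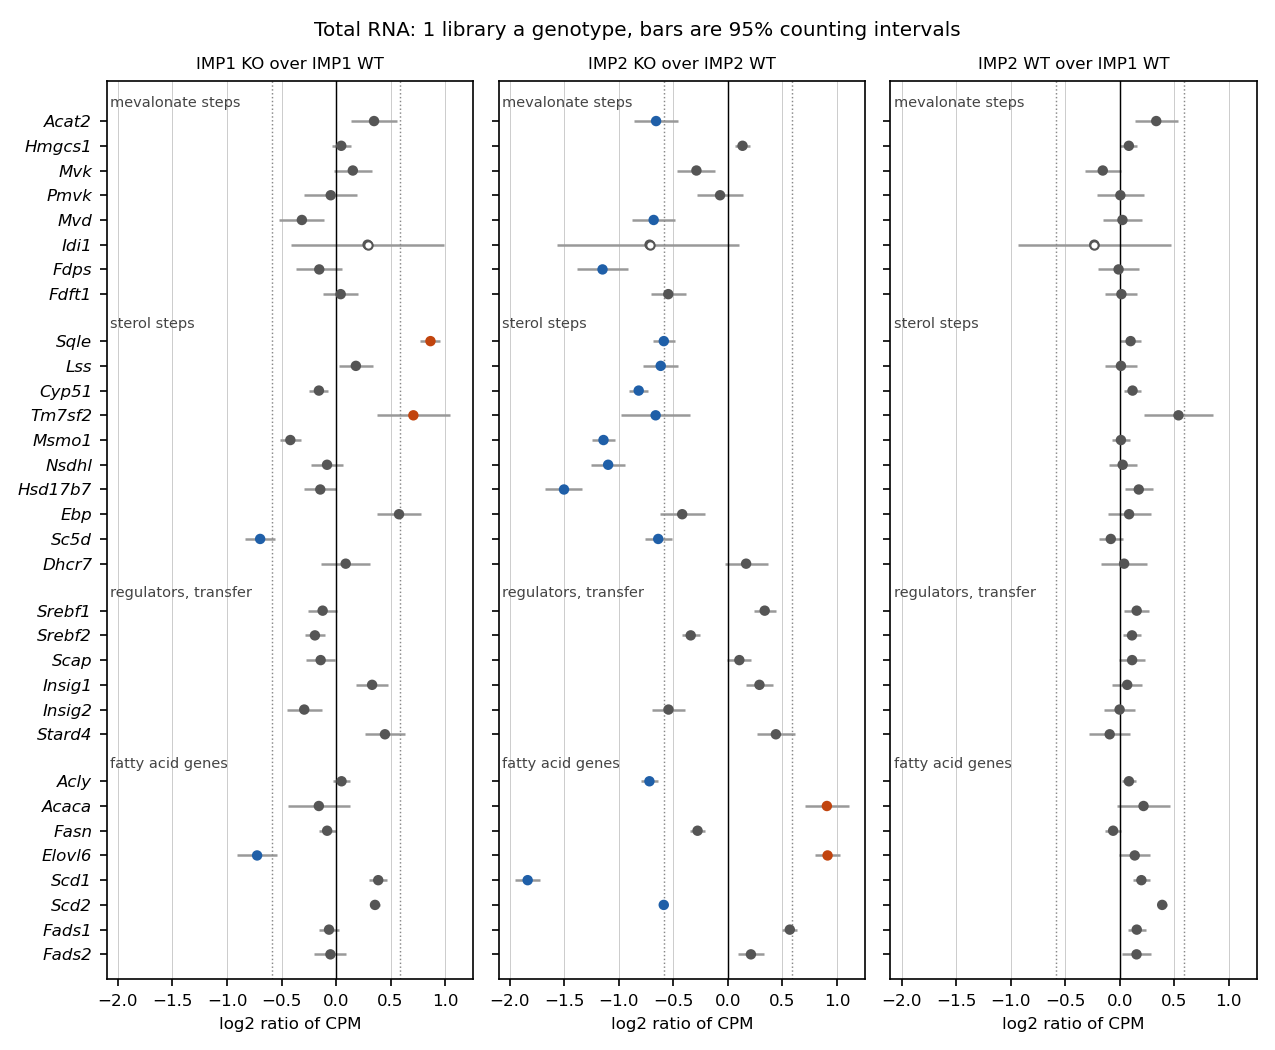
Log2 ratio of CPM (horizontal axes) with 95% counting intervals for each member in IMP1 KO over IMP1 WT, IMP2 KO over IMP2 WT and IMP2 WT over IMP1 WT, with 1 library each, red and blue for members past 1.5-fold higher and lower (dotted lines), and an open point for Idi1, below 10 CPM. In the IMP2 KO panel Scd1 is farthest to the left and 15 of the 17 cholesterol enzymes with at least 10 CPM lie left of 0, while Elovl6 and Acaca lie to the right near 0.90.

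Other genes of these pathways were counted from a list of 52, comprising SREBP processing, other isoprenoid and sterol enzymes, other fatty acid enzymes, and cholesterol transport. In IMP1 IP against IgG IP, 26 of the 51 tested were higher and 9 lower, and in IMP2 IP against IgG IP 38 were higher and 5 lower, read against the same shares of all genes as above. Between IMP1 IP and IMP2 IP, 13 were higher and 29 lower in IMP1 IP, beside 34.1% higher and 37.3% lower among all genes. The 9 other isoprenoid and sterol enzymes were 9 higher and 0 lower with IMP2, beside 40.3% and 37.3% of all genes. With IMP1 they were 2 higher and 3 lower, beside 31.7% and 31.9%.

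By the called log2 fold change, the 2 highest with IMP1 were Acsl4, which activates arachidonic acid, at 0.88 (edgeR adjusted p = 1.58e-13), and Osbp, an oxysterol-binding protein, at 0.82 (adjusted p = 1.1e-13). The 2 lowest were Scd4, at a fitted -1.62, and Cyb5r3, the reductase that feeds electrons to desaturases, at -1.16. With IMP2 the 2 highest were Tmem97, a sterol-binding membrane protein, at 1.21, and Npc2, which hands over lysosomal cholesterol, at 1.15. The 2 lowest with IMP2 were Scd4, at a fitted -1.91, and Lrp1, a lipoprotein receptor, at -1.06. Scd4 averaged only 0.529 CPM in IMP1 IP, 0.420 CPM in IMP2 IP and 1.64 CPM in IgG IP, a level at which its highest group decides whether it passes the filter on low counts, so its place as the lowest supports nothing further. Lrp1 stood at 6151, 6049 and 5946 CPM in IMP1 IP, at 2419, 2086 and 2265 CPM in IMP2 IP, and at 4640.3, 4705 and 4721 CPM in IgG IP. With no overlap, it had the largest excess in IMP1 IP over IMP2 IP of the list, 1.42 ± 0.0395 (edgeR adjusted p = 1.23e-18), followed by Abca1, a cholesterol exporter, at 1.17. The lowest there were Tmem97 at -1.41 and Cyb5r3 at -1.31.

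In IMP2 KO 7 of the 47 other genes counted were higher and 8 lower past 1.5-fold, beside 15.1% each way among all genes. In IMP1 KO 3 were higher and 9 lower, beside 11.9% and 13.4%. Elovl7, a fatty acid elongase, had the highest ratio in IMP2 KO, at 14.8 CPM against 2.14 CPM in IMP2 WT, 6.92 (4.86 to 10.1), and the lowest in IMP1 KO, at 0.256 CPM against 1.97 CPM in IMP1 WT, 0.130 (0.0253 to 0.419), with 3 reads in IMP1 KO. Elovl7 reached 10 CPM in the IMP2 KO library alone, so it was counted only because it was high there, and its place at both ends is a description. In IMP2 KO it was followed by Acsl1, an acyl-CoA synthetase, at 2.24 (1.96 to 2.56), and the lowest were Acsl4, 2.85-fold lower (2.49 to 3.28), and Scarb1, a lipoprotein receptor, 2.42-fold lower (2.16 to 2.72). In IMP1 KO the highest were Mylip, a ligase for lipoprotein receptors, at 1.84 (1.58 to 2.16) and Cyb5a at 1.71 (1.59 to 1.84), and Scarb1 was 2.46-fold lower (2.19 to 2.77).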

How the data were processed

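RNA was sequenced in 9 IP libraries and 4 total RNA libraries. Per the labels' protocols they were made with an Illumina TruSeq kit, and per the submitters' processing notes reads were handled with STAR and HTSeq on mm10, and neither versions, annotation nor strand setting is stated there. Without the strand setting, sense and antisense reads of a gene cannot be told apart. Records tallied as ambiguous between genes, which were not assigned, were 5.88% to 6.35% for IgG IP. They were 1.98% to 2.01% for IMP1 IP, 1.97% to 2.00% for IMP2 IP and 1.73% to 1.81% for total RNA. The part of this difference in the comparisons with IgG IP was not tested. The deposited values were whole-number counts per Ensembl gene, with no normalization by the authors visible in them, and the 5 tally lines of each file were set aside. They gave 43629 genes, of which 42462 matched a symbol. The members and lists were chosen with earlier results of these data known.

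The IP libraries were tested with edgeR 4.0.16 in R 4.3.3 in 1 quasi-likelihood fit of all 9, with TMM scaling, the default count filter by group, and 2-sided tests adjusted over 14076 genes. The common biological coefficient of variation was 3.84%. Standard errors are the log2 fold change over the root of the F statistic. Every pair of libraries within an IP group differed beyond sampling noise, so none was treated as a library deposited again, which does not show that they are separate cultures. IMP2 IP library 1 stood apart, with a chi-square per degree of freedom of 8.41 and 8.83 against libraries 2 and 3, which gave 2.95 between them. Without it, the members called were 17 higher and 8 lower in IMP1 IP against IgG IP, 25 and 3 in IMP2 IP against IgG IP, and 9 and 20 between the proteins. TMM factors were 0.894 to 0.896 in IMP1 IP, 1.12 to 1.128 in IMP2 IP and 0.992 to 1.001 in IgG IP.

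Knockouts, with 1 library each, had no test. CPM were TMM-scaled over the 4 total RNA libraries, log2 ratios used a prior count of 2, and ratios have exact 95% intervals from scipy 1.17.1 (Python 3.11.15, pandas 2.3.3), which cover counting error only. A floor of 3 counts was 0.1379 to 0.2625 CPM. Gene positions are spans in GRCm38.p6 from the RefSeq table.

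All members could be named; values in every library were given for Fasn, Acaca, Srebf1, Srebf2, Insig1 and the 3 members with the highest and the 3 with the lowest change in an IP comparison, and of the other pathway genes the 2 highest and 2 lowest called. Lrp1 values in every library were chosen after they were seen. Alternatives were DESeq2 1.42.0 (its test, or its size factors within edgeR), total count and upper quartile scaling, no count filter, only the libraries compared, the replicate number as a block, a minimum change of 1.5-fold, each library left out, and for total RNA other scalings, prior counts, filters and folds. The comparison of WT libraries and the use of the other line's WT library were chosen after seeing the data. The fit was tested on simulated data.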

Additional observations from a re-analysis of the deposited data

How the results depend on the processing

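With each IP library left out in turn, the genes called numbered 8352 to 9729 in IMP1 IP against IgG IP, 10536 to 11414 in IMP2 IP against IgG IP and 9580 to 10103 in IMP1 IP against IMP2 IP. The members called were 16 to 17 higher and 5 to 8 lower, 23 to 25 higher and 3 lower, and 9 to 10 higher and 19 to 20 lower. A 1.5-fold minimum left 3698, 6020 and 5655 genes, with 5 members higher and 1 lower in the first comparison, 11 and 1 in the second, and 3 and 9 in the third. In IMP2 IP against IgG IP the members lower were 5 with DESeq2 size factors, 7 with upper quartile scaling and 5 with the DESeq2 Wald test. Total count scaling left 5 members higher in IMP1 IP than in IMP2 IP.

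Some small values changed sign. Set against IgG IP, IMP1 IP with total count and upper quartile scaling gave -0.15 and -0.17 for Pmvk and -0.11 and -0.13 for Mvd. In the same order these scalings gave -0.0476 and -0.0648 for Idi1 and -0.0419 and -0.0591 for Nsdhl. Insig2 was at -0.15 and -0.16, called lower under both (edgeR adjusted p = 0.0408 and 0.0221). Fads1 was at -0.11 and -0.13, called lower under upper quartile scaling (edgeR adjusted p = 0.0418). Pmvk was also at -0.00933 with DESeq2 size factors, -0.015 with the 6 libraries compared, -0.00968 with the Wald test and -0.00124 with the replicate block. With single libraries left out, the same comparison gave -0.122 to 0.139 for Pmvk, -0.0291 to 0.137 for Mvd and -0.00497 to 0.0441 for Insig2. Insig2 was at -0.00306 with DESeq2 size factors, -0.00914 with the 6 libraries and -0.00301 with the Wald test. In IMP2 IP against IgG IP, DESeq2 size factors, the Wald test and upper quartile scaling gave -0.0207, -0.0206 and -0.13 for Hmgcs1. For Lss they gave -0.0287, -0.0287 and -0.14, and the 6 libraries gave -0.00777. Hmgcs1 and Lss were called higher under total count scaling, at 0.218 and 0.21, and with no filter, at 0.136 and 0.128. Hmgcs1 was also called higher without the first IMP2 library, at 0.0838 (edgeR adjusted p = 0.0352). Upper quartile scaling gave -0.0167 for Srebf1, -0.0287 for Acly, -0.000479 for Scd1 and -0.0292 for Fads2. Total count scaling and no filter gave 0.11 and 0.0297 for Stard4 and 0.0954 and 0.0138 for Elovl6, and Stard4 was at -0.0733 to 0.00628 with single libraries left out. DESeq2 size factors, the Wald test and upper quartile scaling moved both the other way, to -0.13, -0.13 and -0.24 for Stard4 and -0.14, -0.14 and -0.26 for Elovl6, all called lower. Between IMP1 IP and IMP2 IP, total count scaling gave -0.0806 for Hmgcs1, -0.25 for Cyp51, -0.0295 for Tm7sf2, -0.19 for Srebf2 and -0.35 for Scd2. Of these, Cyp51, Srebf2 and Scd2 were called lower. With DESeq2 size factors Cyp51 was instead called higher, at 0.134 (edgeR adjusted p = 0.00782). Cyp51 was also called higher with the Wald test, with the 6 libraries and without the second IMP2 library, at 0.134, 0.115 and 0.119. Scd2 was at 0.0303 with DESeq2 size factors, 0.0303 with the Wald test, 0.0115 with the 6 libraries and -0.0763 to 0.00656 with single libraries left out. The cause of these changes, beyond the scaling itself, was not tested.

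With a 2-fold threshold IMP1 KO had 0 members higher and 0 lower and IMP2 KO 0 higher and 5 lower. Of all 10332 genes with at least 10 CPM, 543 were then higher and 776 lower in IMP1 KO. In IMP2 KO 798 of them were higher and 799 lower. Against the other line's WT library IMP1 KO had 1 member higher past 1.5-fold, and no share of all genes is given for that comparison. Total count scaling put 9 members of IMP1 IP above WT total RNA and gave -0.0764 for Dhcr7, -0.22 for Scap and -0.12 for Scd2. With the replicate number as a block, 9017, 10961 and 10067 genes were called and the members were 17 higher and 6 lower, 24 and 3, and 9 and 19. Libraries that share a number correlated at -0.309 to 0.00203 between IgG IP and the IMP IPs. Between IMP1 IP and IMP2 IP they correlated at 0.456, 0.0298 and 0.413, and libraries of unlike number at -0.46 to 0.232. Whether the number marks a shared batch of IMP1 and IMP2 libraries was not tested. Idi1, Pmvk and Tm7sf2 were limited by low counts, and the knockouts by 1 library each.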
